A study of Homo sapiens with 8 samples.

Results

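The comparison described here asks what venetoclax, an inhibitor of BCL2, added to the transcriptome of leukemia cells in which SUMO conjugation was already inhibited. It rests on 4 of the 8 RNA sequencing libraries of the study: 2 from KG1a cells given 5 µM TAK-981 together with 1 µM venetoclax for 48 h (the combination) and 2 from cells given 5 µM TAK-981 alone for 48 h. All 4 therefore carried TAK-981 at the same dose and time, and the groups differed by venetoclax. The remaining 4 libraries, 2 from cells given DMSO as vehicle and 2 from cells given 1 µM venetoclax alone, served to show the effect of venetoclax without TAK-981 and to test whether the 2 effects of venetoclax differed. KG1a is an established human acute myeloid leukemia line of immature, CD34-positive phenotype, so all values come from 1 cell line. Whether the 2 libraries of a group stem from different cultures is not in the labels. The p-values then reflect how far these libraries differed, which may be technical.

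BCL2 holds the effector protein BAX and BH3-only proteins, which activate effectors such as BAX and BAK1. A drug that fills its groove, as venetoclax does, releases those partners and starts apoptosis through the mitochondria. SUMO is a small protein that is attached to many nuclear proteins by a cascade that starts with an activating enzyme (SAE1 with UBA2), and TAK-981 blocks the activating enzyme. Genes driven by hypoxia-inducible factors (HIF), which are stabilized when oxygen is low, include most glycolytic enzymes. The aryl hydrocarbon receptor (AHR) is a transcription factor that is activated by aromatic ligands and drives genes such as CYP1A1.

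Total counts per library ran from 13204588 to 22995342 in the 4 libraries compared. Levels are given in CPM, counts scaled to library size. Over 9858 genes of at least 5 CPM, the median gap on the log2 scale was 0.088 between the TAK-981 libraries and 0.101 between the combination libraries, against 0.262 between the venetoclax libraries. The test of edgeR took 1 spread per gene from all 8 libraries, so the wider spread of the venetoclax libraries entered it. CD34, the marker of the line, stood at 1263 and 1251 CPM with TAK-981 and at 1214 and 1256 in the combination. In the test described below 0 of 12 progenitor genes passed, beside 8.8% of all tested genes. With the 4 libraries alone 2 passed, both lower, beside 16.2% of all genes called lower in that fit. Of the lists of other cell types, the megakaryocyte genes summed to 342 and 351 CPM with TAK-981 and 406 and 467 in the combination, the mast cell genes to 224 and 216 and then 280.2 and 284, and the endothelial genes to 275 and 295 and then 240 and 261, with PF4, FCER1A and CDH5 at 0. The T and NK cell genes summed to 86.7 and 97.8 CPM and then 66.3 and 77.6, and the B cell and erythroid genes to under 15 CPM in each of the 4 libraries. In the 8-library test 2.76% of all tested genes were called higher and 6.03% lower. Of the tested members, 2 of 7 megakaryocyte genes were called higher (F2RL3 and SELP), 1 of 7 mast cell genes (CPA3) and 2 of 3 stromal genes (PDGFRA and COL3A1). Called lower were 1 of 3 B cell genes and 1 of 5 T and NK cell genes, while 0 of 7 endothelial and 0 of 3 erythroid genes were called. The part of such cell types in the results was not tested. HBA1, HBA2, HBB, HBG1, GYPB and ALAS2 of the erythroid list, CD2 and GNLY of the T and NK cell list and EBF1 of the B cell list were at 0 in all 4 libraries. The summed level of the 9 stromal genes was 3.65 and 3.1 CPM with TAK-981 and 12 and 15 in the combination, with COL1A2, DCN and THY1 at 0, so that it rested on other members such as PDGFRA. These are bulk samples, in which fewer cells of a type and less RNA per cell cannot be told apart.

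More genes passed the test as lower than as higher when venetoclax was added to TAK-981, although by sign alone 6664 of all tested genes were higher and 6179 lower. A gene is said to have risen or fallen where its adjusted p was under 0.05 in edgeR's quasi-likelihood test, the source of every adjusted p-value given for a gene. Of 12843 genes tested, 1130 passed (8.8%), 355 higher in the combination (2.76%) and 775 lower (6.03%). The change exceeded 2-fold for 126 of the higher and 155 of the lower genes, and the median log2 fold change of all tested genes was 0.016. With the 4 libraries of the comparison alone, 3746 of 12566 genes passed (29.8%), 1716 higher (13.7%) and 2030 lower (16.2%), and 1124 of the 1130 were among them. The share of higher calls was 31.4% in the 8-library fit and 45.8% in the 4-library fit. With 1 library left out of the 8, the number of calls ran from 65, without combination replicate 2, to 3696, without venetoclax replicate 1, and was 150 and 104 without TAK-981 replicates 1 and 2, 238 without combination replicate 1, and 533 and 529 without vehicle replicates 1 and 2. Counts for gene lists moved in the same way and are given below where they carry a result. They are to be read beside the shares over all genes. These were 2.76% higher and 6.03% lower in the 8-library fit, and 13.7% and 16.2% with the 4 libraries alone. Of the 1130 genes, 56 were called with each of the 8 libraries left out in turn, 18 higher and 38 lower, and the 20 leading genes described first were chosen from these.

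**Figure D1:**
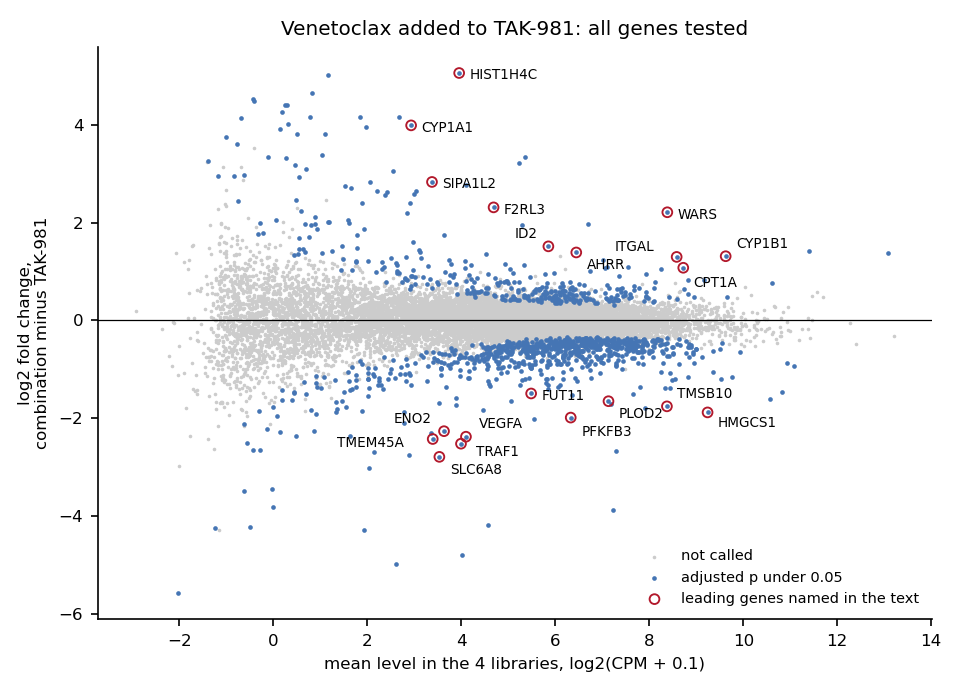
Log2 fold change of the combination against TAK-981 (y axis) by mean level in the 4 libraries, as log2 of CPM plus 0.1 (x axis), for the genes tested, with 7 genes beyond 6 log2 units left off. Blue points are the 1130 genes that passed, and circles mark the 10 leading rises, from HIST1H4C at 5.06, and the 10 leading falls, to SLC6A8 at -2.79.

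Promoter sequences are shown for some of the genes described below, with the core letters known for HIF and for AHR marked, to show where those letters stand. They span 250 bases before to 50 bases after the RefSeq start site (GRCh38.p14), read 5′ to 3′ on the strand of the gene. In the first 5, from genes of glycolysis and of the hypoxia response that fell, capitals mark the HIF core ACGTG on either strand, and where CACGTG stands both strands match.
BNIP3 (chr10:131981874-131982173, strand -): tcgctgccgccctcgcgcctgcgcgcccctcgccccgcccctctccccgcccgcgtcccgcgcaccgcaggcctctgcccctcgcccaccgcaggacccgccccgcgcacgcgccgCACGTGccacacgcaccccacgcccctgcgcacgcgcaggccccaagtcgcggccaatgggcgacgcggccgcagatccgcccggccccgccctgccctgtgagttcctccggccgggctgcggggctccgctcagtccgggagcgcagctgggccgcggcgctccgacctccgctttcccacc
EGLN1 (chr1:231422238-231422537, strand -): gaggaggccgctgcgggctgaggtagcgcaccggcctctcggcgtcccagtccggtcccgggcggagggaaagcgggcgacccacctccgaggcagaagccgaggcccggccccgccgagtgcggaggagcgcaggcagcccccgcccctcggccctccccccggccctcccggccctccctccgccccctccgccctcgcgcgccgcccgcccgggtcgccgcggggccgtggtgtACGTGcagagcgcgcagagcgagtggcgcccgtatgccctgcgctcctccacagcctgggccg
AK4 (chr1:65147302-65147601, strand +): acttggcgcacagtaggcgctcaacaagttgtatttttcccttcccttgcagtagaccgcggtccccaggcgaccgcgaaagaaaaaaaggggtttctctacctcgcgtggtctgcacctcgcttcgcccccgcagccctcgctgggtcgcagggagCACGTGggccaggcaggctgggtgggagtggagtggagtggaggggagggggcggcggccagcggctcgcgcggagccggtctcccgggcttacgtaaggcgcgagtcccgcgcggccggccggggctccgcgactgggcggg
ENO2 (chr12:6914330-6914629, strand +): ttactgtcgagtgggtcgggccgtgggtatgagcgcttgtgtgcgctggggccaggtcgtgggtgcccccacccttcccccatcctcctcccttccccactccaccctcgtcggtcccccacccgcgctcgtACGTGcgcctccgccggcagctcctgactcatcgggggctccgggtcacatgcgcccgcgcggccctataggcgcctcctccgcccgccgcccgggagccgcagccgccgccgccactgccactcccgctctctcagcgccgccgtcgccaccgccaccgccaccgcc
LDHA (chr11:18394313-18394612, strand +): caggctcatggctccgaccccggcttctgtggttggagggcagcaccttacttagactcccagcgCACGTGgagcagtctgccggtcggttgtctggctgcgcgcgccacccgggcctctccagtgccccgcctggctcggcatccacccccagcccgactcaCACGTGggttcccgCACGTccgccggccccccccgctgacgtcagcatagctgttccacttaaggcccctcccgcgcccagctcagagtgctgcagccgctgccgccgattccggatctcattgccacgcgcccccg
In the next 2, from genes known as AHR targets and shown because they were among the leading rises, capitals mark the core GCGTG, to which AHR with its partner ARNT binds.
CYP1A1 (chr15:74725479-74725778, strand -): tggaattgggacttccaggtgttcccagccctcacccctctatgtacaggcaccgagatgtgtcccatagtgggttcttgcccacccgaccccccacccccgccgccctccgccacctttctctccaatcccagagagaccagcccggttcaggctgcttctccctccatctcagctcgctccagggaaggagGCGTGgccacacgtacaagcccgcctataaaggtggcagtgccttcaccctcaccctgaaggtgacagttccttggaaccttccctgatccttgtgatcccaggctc
AHRR (chr5:321464-321763, strand +): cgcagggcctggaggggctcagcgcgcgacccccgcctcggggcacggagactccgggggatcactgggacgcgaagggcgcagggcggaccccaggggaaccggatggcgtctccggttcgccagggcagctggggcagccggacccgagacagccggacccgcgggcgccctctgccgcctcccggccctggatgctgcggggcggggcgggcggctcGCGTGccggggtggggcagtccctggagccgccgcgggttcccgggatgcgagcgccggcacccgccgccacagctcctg
The letters ACGTG stood on either strand in 21.4% of 35116 promoters of this length and in 27.1% of the 9828 promoters found for tested genes. They stood in 16 of the 23 promoters found for tested members of the hypoxia list (69.6%) and in 9 of 28 for glycolysis (32.1%). For the members that fell the numbers were 12 of 18 (66.7%) and 7 of 18 (38.9%). The 5 promoters shown for ACGTG were picked by hand and all hold it, so they do not stand for their lists. GCGTG stood in 50.5% of the promoters of tested genes, so its presence is common. A match is a description of letters and not a measured binding site.

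The 10 leading rises, chosen by a rule that left out noncoding symbols, came from genes of unlike function. Histone genes and RNAs without poly(A) tails, described below, were among the largest rises over all tested genes. By log2 fold change HIST1H4C ranked 5, RNU12 14 and RNU11 15, and CYP1A1 18. CYP1A1, a cytochrome P450 that oxidizes aromatic compounds and is the classic AHR target, had 19 and 18 counts with TAK-981 and 281 and 213 in the combination. This was 0.817 and 0.963 CPM against 12.9 and 15.5, a log2 fold change of 3.99 (SE 0.311). In vehicle and venetoclax alone it stood at 0.299 CPM or less, so that the combination libraries were the high ones of the 8. AHRR, the AHR repressor and itself an AHR target, rose from 50.7 and 45.5 CPM to 120.3 and 132 (log2 1.39, SE 0.132). CYP1B1, a related P450, rose from 475 and 432 CPM to 1115 and 1139 (log2 1.31, SE 0.108). WARS, the tryptophanyl-tRNA synthetase, rose from 115 and 122 CPM to 407 and 692 (log2 2.21, SE 0.243). Of 20 aminoacyl-tRNA synthetase genes 1 other passed, DARS, lower at -0.58. With the 4 libraries alone 5 of the 20 rose and 1 fell, beside 13.7% higher and 16.2% lower over all genes of that fit.

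F2RL3, the thrombin receptor PAR4 and a member of the megakaryocyte list, stood at 9.11 and 8.02 CPM with TAK-981 and at 35.6 and 50 in the combination (log2 2.31, SE 0.19), and between 1.11 and 1.22 CPM in the 4 libraries without TAK-981. ITGAL, the alpha chain of the leukocyte integrin LFA-1, rose from 222 and 221 CPM to 550 and 541 (log2 1.30, SE 0.0987). ID2, an inhibitor of basic helix-loop-helix transcription factors, rose from 32.7 and 27.1 CPM to 83.2 and 88 (log2 1.52, SE 0.165). CPT1A, which brings fatty acids into mitochondria, rose from 257 and 287 CPM to 533 and 614 (log2 1.08, SE 0.125). SIPA1L2, of a family that regulates the small GTPase Rap, rose by 2.83 on the log2 scale. HIST1H4C, a histone H4 gene, rose most of the 10 leading rises, by 5.06 (SE 0.507), from 1.42 and 0.267 CPM to 24.3 and 35.6. The groups did not overlap for any of these 10 genes, a condition of the rule that chose them.

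The leading falls included several genes known to be induced by hypoxia. PFKFB3, which makes the activator of phosphofructokinase, fell from 121 and 136 CPM to 31.8 and 33 (log2 -1.99, SE 0.106), with the smallest adjusted p of the 20 leading genes, 0.000146. VEGFA, the vascular growth factor, fell from 24.2 and 32.9 CPM to 4.89 and 6.19 (log2 -2.38, SE 0.293) and had the largest, 0.0031. ENO2, an enolase, fell from 18.9 and 21.8 CPM to 4.12 and 4.37 (log2 -2.26, SE 0.177). PLOD2, a collagen lysyl hydroxylase, fell by 1.65 on the log2 scale, and the log2 fold change of TMEM45A, a transmembrane protein gene, was -2.42. SLC6A8, the creatine transporter, fell from 16 and 24.1 CPM to 2.7 and 3.13 (log2 -2.79, SE 0.256). In SLC6A8 the 2 TAK-981 libraries were the highest of the 8, with 4.13 and 4.91 CPM in vehicle and 0.457 and 0.701 in venetoclax alone.

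TRAF1, an adaptor of TNF receptors and a target of NF-kB, fell from 27.1 and 26.8 CPM to 4.66 and 4.73 (log2 -2.52, SE 0.256). HMGCS1, the cytosolic HMG-CoA synthase of cholesterol synthesis, fell from 1064 and 839 CPM to 282 and 235 (log2 -1.88, SE 0.205). TMSB10, an actin-binding thymosin, fell from 503 and 522 CPM to 148 and 155 (log2 -1.76, SE 0.129). For HMGCS1 and TMSB10 the TAK-981 libraries were the highest of the 8 and the combination libraries the lowest. FUT11, a fucosyltransferase, fell by 1.49 on the log2 scale.

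**Figure D2:**
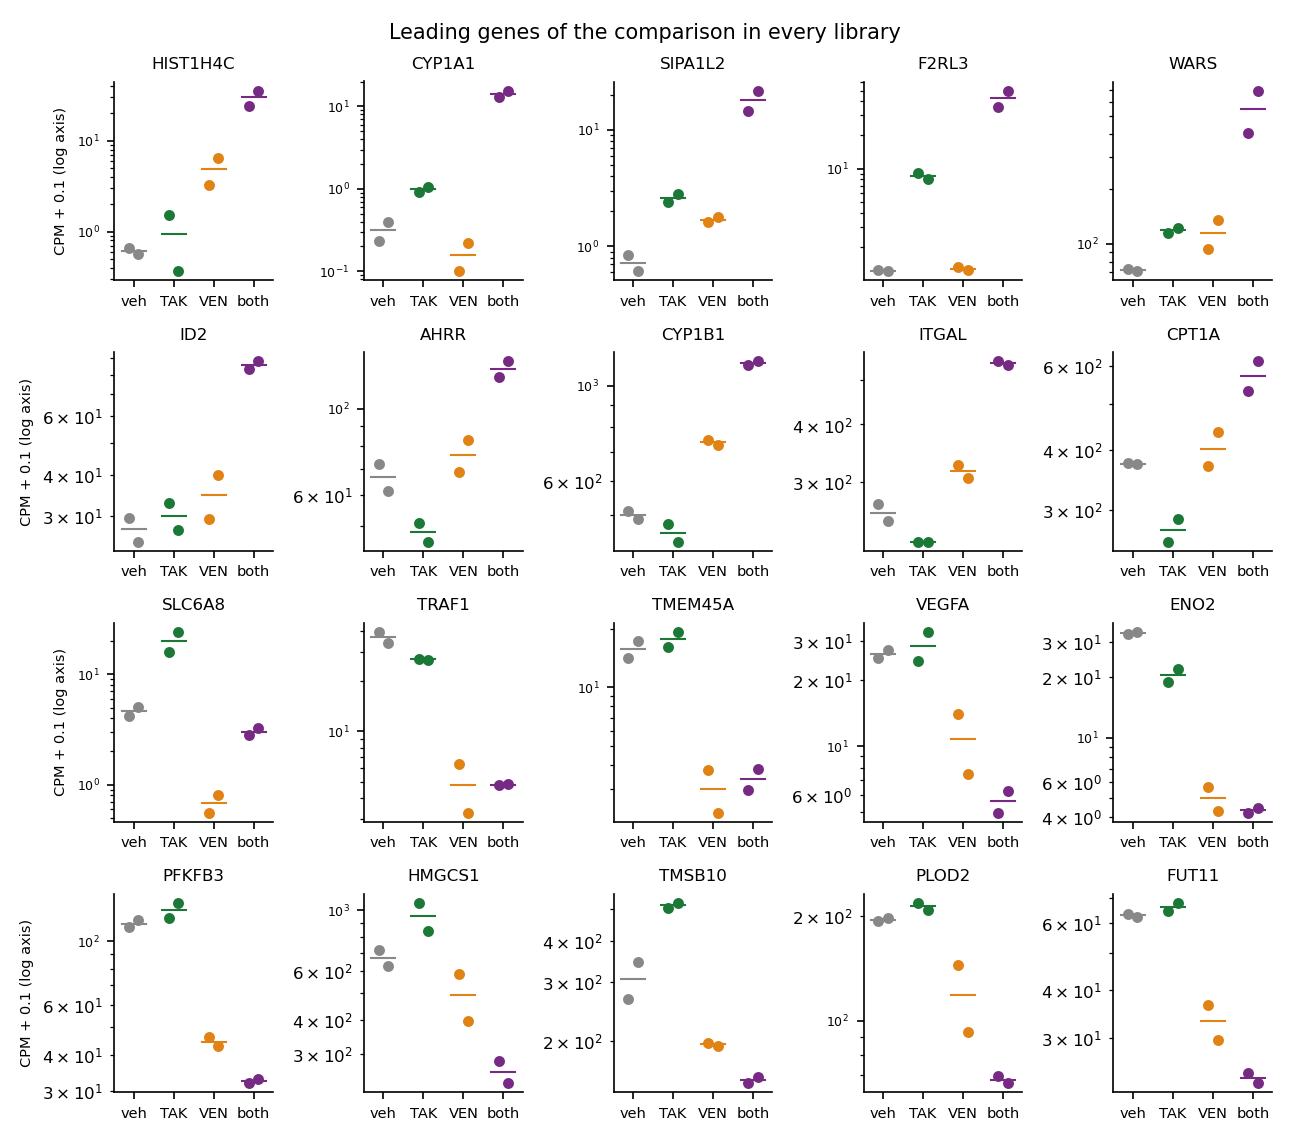
CPM plus 0.1 on a log axis for the 20 leading genes in the 8 libraries: vehicle (veh), TAK-981 (TAK), venetoclax (VEN) and the combination (both), with a point per library and a line at the group mean. The upper 10 genes are higher in both combination libraries than in either TAK-981 library and the lower 10 are lower, as for PFKFB3, at 121 and 136 CPM with TAK-981 and at 31.8 and 33 in the combination.

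Genes of glycolysis fell along the whole pathway, while 1 pentose phosphate gene fell, RPE (log2 -0.38). Of 31 tested genes of glycolysis, glucose transport and the pentose phosphate pathway, 0 rose, 19 fell and 12 were not called, with a median log2 fold change of -0.88 (-0.90 and -0.81 for the 2 combination libraries against the TAK-981 mean), against 0.016 for all tested genes. Every step from glucose entry to lactate export held a gene that fell. The glucose transporter SLC2A1 fell from 50.8 and 58.7 CPM to 21.6 and 25.7 (log2 -1.21, SE 0.139), and hexokinase HK2 from 295 and 297 to 101 and 108 (log2 -1.50, SE 0.179). For the following steps the log2 fold changes were -1.23 for the isomerase GPI, -0.82 for the phosphofructokinase PFKP, -1.15 for the aldolase ALDOA, -1.07 for the triosephosphate isomerase TPI1, -0.93 for GAPDH, -1.15 for the phosphoglycerate kinase PGK1 and -0.93 for the mutase PGAM1.

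Enolase ENO1 fell from 2577 and 2739 CPM to 950 and 986 (log2 -1.46, SE 0.13), and the pyruvate kinase PKM by 1.20 on the log2 scale. Lactate dehydrogenase LDHA, whose promoter is shown above, fell from 2295 and 2241 CPM to 782 and 716 (log2 -1.60, SE 0.222). Its sister LDHB, which favours the reverse reaction, stood at 560 and 526 CPM and then at 523 and 554. The lactate exporter SLC16A3 fell by 1.73 on the log2 scale. PFKFB4, a second switch enzyme of phosphofructokinase, had the largest fall of the list, from 38.3 and 51.4 CPM to 2.7 and 2.11 (log2 -4.19, SE 0.565). The pentose phosphate gene TKT, at -0.16 (adjusted p = 0.564), did not pass. With the 4 libraries alone 21 of the 31 fell and 3 rose, and without combination replicate 2, the library whose loss cost most calls, 9 fell and 0 rose. SLC2A1, HK2, LDHA, PFKFB4, GAPDH, SLC16A3 and TKT were chosen for naming after their values were seen, as were the list members given by fold change alone.

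Other hypoxia-inducible genes moved the same way. Of 27 tested genes of this list that are not glycolytic, 0 rose, 20 fell and 7 were not called, with a median log2 fold change of -1.35. Without combination replicate 2, 6 of them fell and 0 rose. EGLN1, the prolyl hydroxylase that marks HIF for destruction, fell from 120 and 126 CPM to 53.5 and 50.5 (log2 -1.24, SE 0.109). AK4, a mitochondrial adenylate kinase, fell from 147 and 155 CPM to 58.7 and 74.4 (log2 -1.19, SE 0.128). BNIP3, a mitochondrial protein of mitophagy, fell from 280 and 285 CPM to 19.3 and 19 (log2 -3.88, SE 0.457). STC2, the stanniocalcin gene, had 339 counts in the 2 TAK-981 libraries and 0 in the 2 combination libraries, at least 95.9-fold lower when the group at 0 is set to 3 counts, and the list's median was the same with STC2 set to that bound. It was already at 0.381 and 0 CPM with venetoclax alone, against 3.43 and 3.93 in vehicle.

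Chosen after their values were seen, the collagen prolyl hydroxylase P4HA1 fell from 271 and 274 CPM to 42.3 and 42.8, the adrenomedullin gene ADM by 2.75 and the mTORC1 inhibitor gene DDIT4 by 2.01 on the log2 scale. The host transcript of the hypoxia-linked miRNA 210, MIR210HG, stood at 11.1 and 12.1 CPM and then at 0.457 and 0.219 (log2 -4.98, SE 0.707). Messages of the factors themselves did not pass the test. HIF1A stood at 213 and 218 CPM with TAK-981 and at 181 in both combination libraries (log2 -0.25, adjusted p = 0.408), and EPAS1 was at 0.85 (adjusted p = 0.0928). With the 4 libraries alone both passed, HIF1A with adjusted p = 0.00964 and EPAS1 with adjusted p = 0.0243.

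Of 26 cholesterol synthesis and uptake genes, 0 rose, 12 fell and 14 were not called, with a median of -0.41, and 3 fell without combination replicate 2 and without TAK-981 replicate 1. Beside HMGCS1, STARD4, which carries sterols between membranes, fell from 80.4 and 83.6 CPM to 35.4 and 30.4 (log2 -1.31, SE 0.119), and the sterol oxidase MSMO1 from 84.2 and 73.5 to 35.3 and 29.9 (log2 -1.27, SE 0.12). The isomerase IDI1 fell by 0.77. Chosen after their values were seen, SREBF2, which encodes the factor driving these genes, fell by 0.56 on the log2 scale and the squalene epoxidase SQLE by 0.54. INSIG1, which holds that factor in the endoplasmic reticulum, stood at 237 and 214 CPM in vehicle, 2577 and 2455 with TAK-981, and 1202 and 1541 in the combination, a fall of 0.88 that left it above both groups without TAK-981. In fatty acid synthesis 4 of 11 genes fell and 0 rose, with 0 called without combination replicate 2. They were the desaturases SCD (915 and 850 to 458 and 389 CPM, log2 -1.06), FADS2 -0.65 and FADS1 -0.54 and the factor gene SREBF1 -0.74, while the synthase FASN stood at -0.06. With the 4 libraries alone 4 of the 11 fell and 2 rose. FADS1, FADS2 and FEN1 overlap on the genome, and the strand setting of the counting is not given, so their reads may be shared.

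Some DNA replication genes rose from the low level they had with TAK-981, and most were not called. Of 46 genes, 15 rose, 0 fell and 31 were not called, with a median of 0.40, and with the 4 libraries alone 37 rose. Left without a single library of either group, the test called 0 of the 46 (TAK-981 replicate 1 or 2, or combination replicate 1) or 1 (combination replicate 2), and 3 without either vehicle library. GINS2, of the helicase complex, stood at 49.3 and 49.3 CPM in vehicle, 23.6 and 23.5 with TAK-981, and 45.8 and 34.4 in the combination (log2 0.77, SE 0.139). The loading factor CDC6 rose from 57.6 and 54.9 CPM to 92.3 and 81.6 (log2 0.63, SE 0.102), the nuclease FEN1 by 0.67 and the clamp loader subunit RFC4 by 0.64. Against the vehicle mean the list's median was -0.67 and -0.68 in the TAK-981 libraries, and -0.15 and -0.40 in the combination libraries. In DNA repair and checkpoints 8 of 39 genes rose and 0 fell, with a median of 0.27, and 20 rose with the 4 libraries alone, against 0 without any 1 of the TAK-981 or combination libraries. CLSPN, the checkpoint adaptor claspin, rose from 85 and 69.5 CPM to 177 and 187 (log2 1.24, SE 0.199), the mismatch repair gene MSH6 by 0.59, the nuclease EXO1 by 0.49 and the scaffold XRCC1 by 0.51. Of 53 mitosis genes 0 rose and 2 fell, MAD2L1 -0.69 and ECT2 -0.53, and the list's median was 0.09 in the first and -0.19 in the second combination library. Among MYC targets and ribosome biogenesis genes 2 of 40 rose and 1 fell, against 20 and 1 with the 4 libraries alone.

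Replication-dependent histone messages rose with other RNAs that lack poly(A) tails. Of 37 tested histone genes, 22 rose, 0 fell and 15 were not called, with a median of 2.01. Without combination replicate 2 the test called 1 of them, and without TAK-981 replicates 1 and 2 it called 4 and 2. Their summed level was 62.4 and 48.2 CPM with TAK-981 and 139 and 210 in the combination, against 34.2 and 32.1 in vehicle. HIST1H3F had 0 counts with TAK-981 and 33 in the combination, at least 13-fold higher when the group at 0 is set to 3 counts. HIST1H2BI had 2 and 41 counts, a ratio of 24.2 (95% exact counting interval 6.28 to 206). HIST1H2BG rose from 2.66 and 1.77 CPM to 13 and 15.1 (log2 2.64, SE 0.399). Of the 14 tested RNAs of the list without poly(A) tails, 13 rose, 0 fell and 1 was not called, with a median of 3.34 (2.59 and 3.67 by library), and 5 rose without combination replicate 2 and 4 without TAK-981 replicate 2. RN7SK, the RNA that holds the elongation factor P-TEFb inactive, rose from 8.81 and 5.72 CPM to 56.7 and 91.4 (log2 3.33, SE 0.268). The minor spliceosome RNAs RNU11 and RNU12 rose by 4.16 and 4.17 on the log2 scale. The list's sum was 41.7 and 35.5 CPM with TAK-981 and 175 and 338 in the combination. The second combination library was the higher one in both lists.

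MALAT1, a nuclear noncoding RNA chosen after its values were seen, rose from 6152 and 3496 CPM to 11460 and 13520 (log2 1.37, SE 0.273). Of the 13 long nuclear noncoding RNAs it belongs to, 2 rose, 1 fell and 10 were not called. The capture of RNAs without tails depends on the library method, on which the sources differ. The part of RNA capture or quality in these rises was not tested. Histone genes are near-identical copies, and how reads that map to several places were counted is not given, so single members are uncertain.

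Venetoclax targets a protein of the BCL2 family. Of its tested genes, 1 of 5 that oppose apoptosis fell, and of 8 BH3-only and effector genes 1 rose and 2 fell, beside 8.8% called over all tested genes. BCL2 itself fell from 150 and 158 CPM to 109 and 119 (log2 -0.44, SE 0.0935, adjusted p = 0.0231), after 289 and 298 in vehicle. MCL1, BCL2L1 and BCL2A1, whose proteins can stand in for BCL2, did not pass, with log2 fold changes of -0.17 (adjusted p = 0.312), 0.08 (adjusted p = 0.809) and -0.29 (adjusted p = 0.409). PMAIP1, which encodes NOXA, the BH3-only partner of MCL1, fell from 34 and 36 CPM to 13.3 and 14.4 (log2 -1.34, SE 0.144, adjusted p = 0.00205). PMAIP1 kept its call with each library left out, while BCL2, BMF and BCL2L11 lost theirs without any 1 of the TAK-981 or combination libraries, BCL2 and BCL2L11 also without either vehicle library. The level of PMAIP1 in vehicle and venetoclax alone was 32.9 to 43.9 CPM, so both combination libraries lay below the other 6. BMF, another BH3-only gene, rose from 11 and 9.04 CPM to 24.7 and 22.1 (log2 1.22, SE 0.202, adjusted p = 0.00914), with 3.43 and 5.1 in venetoclax alone. BCL2L11, which encodes BIM, fell by 0.45 on the log2 scale (adjusted p = 0.0406).

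BBC3, which encodes PUMA, stood at 0.946 and 1.82 CPM with TAK-981 and at 0.412 and 0.51 in the combination, and its log2 fold change of -1.58 did not pass (adjusted p = 0.0621). The effectors BAX, at 0.39 (adjusted p = 0.275), and BAK1, at 0.30 (adjusted p = 0.67), did not pass either. With the 4 libraries alone BBC3 (adjusted p = 0.025) and BAX (adjusted p = 0.0172) passed. Among 21 caspases and death receptor regulators 1 rose and 3 fell, with 0 calls without any 1 of the TAK-981 or combination libraries, which also held for the SUMO pathway list below. RIPK1, a kinase of the TNF receptor pathway, rose by 0.43 on the log2 scale, and the caspase inhibitor XIAP fell by 0.49 and the ubiquitin ligases BIRC2 and BIRC3 by 0.41 and 0.53. Of 22 SUMO pathway genes 1 passed, the ligase PIAS2, lower at -0.42. The target enzyme subunits SAE1, at 0.29 (adjusted p = 0.154), and UBA2, at -0.23 (adjusted p = 0.237), did not pass in the 8-library fit, and with the 4 libraries alone they passed with adjusted p = 0.00569 and adjusted p = 0.0388.

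**Figure D3:**
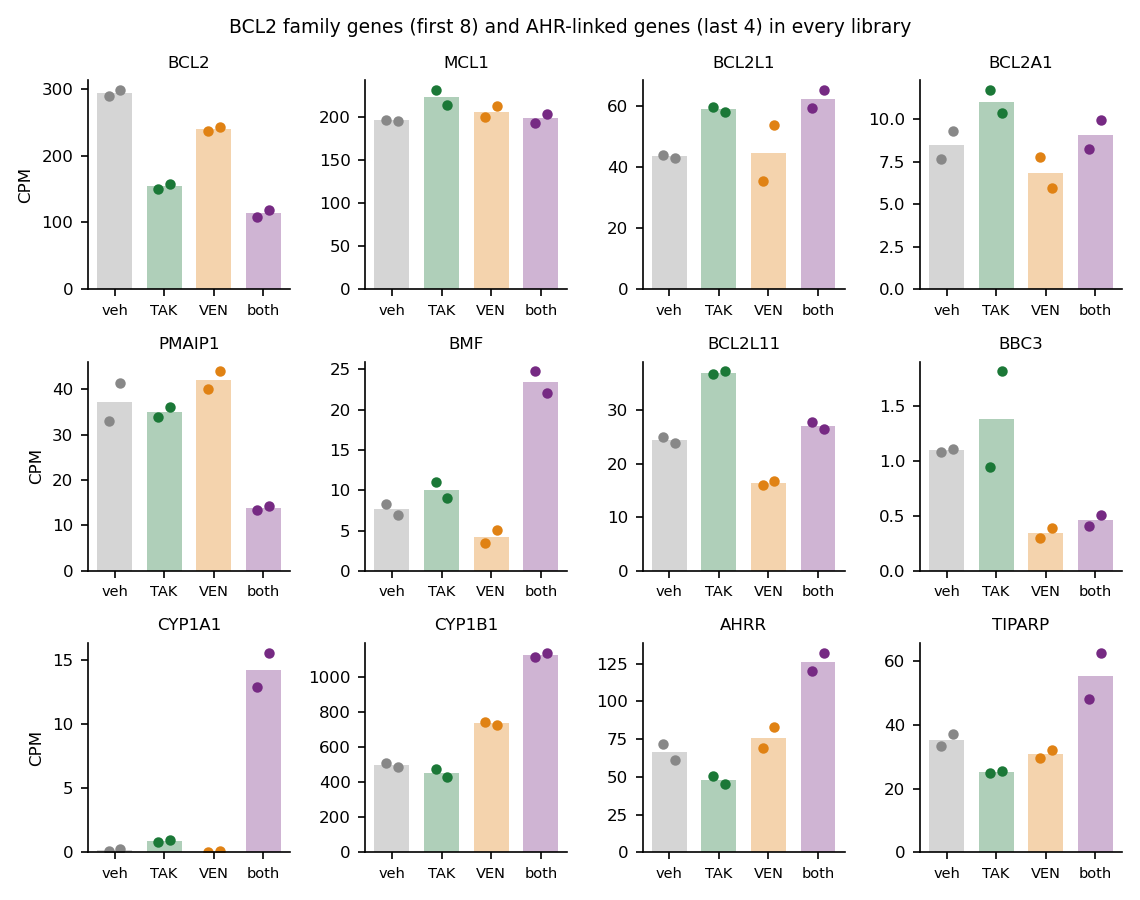
CPM in the 8 libraries for 8 BCL2 family genes and 4 genes linked to AHR, with a bar at the group mean and a point per library, for vehicle (veh), TAK-981 (TAK), venetoclax (VEN) and the combination (both). PMAIP1 is lowest in the combination libraries, at 13.3 and 14.4 CPM, and BMF and CYP1A1 are highest there, at 24.7 and 22.1 and at 12.9 and 15.5 CPM.

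Protein quality genes rose in part, and the calls of the 3 lists that follow were lost without combination replicate 2. The number of proteasome calls also changed when other libraries were left out, and the cause was not tested. Over all fits the median log2 fold change of the proteasome list ran from 0.24 to 0.33. Of 32 proteasome genes 8 rose and 0 fell, with a median of 0.29, and 20 rose with the 4 libraries alone. PSMD1, of the regulatory particle, rose from 168 and 153 CPM to 246 and 248 (log2 0.62, SE 0.0944), and the ATPase subunits PSMC1, PSMC4 and PSMC3 by 0.64, 0.52 and 0.47. Of 27 cytosolic heat shock and chaperonin genes 4 rose and 1 fell. HSPH1, a co-chaperone of HSP70, rose from 162 and 150 CPM to 248 and 260 (log2 0.71, SE 0.0915), AHSA1, the HSP90 activator, by 0.63, STIP1, which links HSP70 with HSP90, by 0.43, and HSPA1B by 0.87, while DNAJB4 fell by 0.55. In the endoplasmic reticulum 4 of 25 genes rose and 1 fell. The chaperone HSPA5 rose from 419 and 405 CPM to 668 and 805 (log2 0.84, SE 0.142), CALR by 0.77, HYOU1 by 0.59 and HSP90B1 by 0.49, and EDEM1, of the degradation branch, fell by 0.54. With the 4 libraries alone 15 heat shock and 9 endoplasmic reticulum genes rose.

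The 20 tested genes of the integrated stress response split, again with 0 calls without combination replicate 2. DDIT3, which encodes CHOP, rose from 4 and 3.58 CPM to 8.14 and 8.67 (log2 1.14, SE 0.232), ATF5 by 0.80 and the phosphatase subunit PPP1R15A by 0.72, while ATF4, the factor upstream of them, fell from 326 and 330 CPM to 251 in both libraries (log2 -0.38, SE 0.101). The remaining 16 were not called. With the 4 libraries alone 4 of the 20 rose and 4 fell. Among 13 amino acid and related transporters 1 rose, SLC1A4 (log2 1.04), and 4 fell: SLC6A8, the cystine importer SLC7A11 (93.3 and 107 to 44.5 and 42.9 CPM, log2 -1.20), and the glutamine carriers SLC38A2 -0.67 and SLC38A1 -0.51. SLC7A11 stood between 81.2 and 107 CPM in the 6 libraries without both drugs. Of 31 lysosome and autophagy genes 4 rose, among them the enzymes CTSA 0.89 and GLA 0.87 and the membrane protein LAMP1 0.58, and 1 fell, ATG12 -0.52, and none of the 5 was called without any 1 of the TAK-981 or combination libraries. In the nuclear-encoded respiratory chain 4 of 75 rose (5.33%), a share less than 2 times the background of higher calls: NDUFS6 0.66, ATP5I 0.65, UQCR10 0.50 and SDHA 0.38, with 0 calls when any 1 library other than those of venetoclax alone was left out. Of 78 cytosolic ribosomal protein genes 0 rose and 0 fell in this test. With the 4 libraries alone 0 rose and 17 fell, in a fit where 16.2% of all genes fell.

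A few interferon-stimulated genes rose, and the list's median differed between the combination libraries. Of 48 genes, 5 rose, 0 fell and 43 were not called, and the median was 0.20 in the first combination library and 0.55 in the second. LGALS3BP, a secreted lectin-binding protein, rose from 2.11 and 2.57 CPM to 9.69 and 15.2 (log2 2.40, SE 0.367), SAMD9L by 0.92 and OAS3 by 0.78. With the 4 libraries alone 20 of 47 rose and 2 fell, and without combination replicate 2 or either TAK-981 library 0 were called. For several genes named above the reads may belong in part to an overlapping gene, since the use of strand is not known: WARS with WDR25, AHRR with PDCD6, CYP1B1 with CYP1B1-AS1, ENO2 with LRRC23, TPI1 with SPSB2, TMSB10 with TRABD2A, SLC6A8 with PNCK and DDIT3 with MARS. HSPA1B has a near-identical copy in HSPA1A.

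Some NF-kB and immediate early genes fell. Of 17 NF-kB subunits and targets 5 fell and 0 rose, against 6 lower and 2 higher with the 4 libraries alone. The 5 were TRAF1, the chemokine CXCL8 (3.4 and 2.3 to 0.503 and 0.728 CPM, log2 -2.25), TNIP1 -0.95, the deubiquitinase TNFAIP3 -0.55 and BIRC3 -0.53. The list's median was -0.06, with the other 12 members not called, and without combination replicate 2 the test called 1 of the NF-kB list and 0 of the immediate early list. Of 25 immediate early genes 5 fell and 2 rose, against 8 lower and 3 higher with the 4 libraries alone. KLF2, a Krüppel-like factor, stood at 1.59 and 0.909 CPM and then at 0.183 and 0.219 (log2 -2.65, SE 0.508), JUN fell by 1.64, KLF6 by 0.74 and FOSL2 and BTG1 by 0.51 each, while PPP1R15A and BTG2 rose by 0.72 and 0.64. In the MAPK feedback list 3 of 24 fell, the inhibitors SPRED1 -0.88 and SPRY2 -0.73 and the kinase PIM1 -0.48, with 0 calls without any 1 of the TAK-981 or combination libraries. In MHC class I presentation 2 of 17 genes rose (11.8%) and 0 fell, and of 20 NRF2 targets 1 rose and 1 fell. Over all tested genes 2.76% rose and 6.03% fell. Of the NRF2 targets 12 rose and 1 fell with the 4 libraries alone, against 4 higher and 0 lower for MHC class I.

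**Figure D4:**
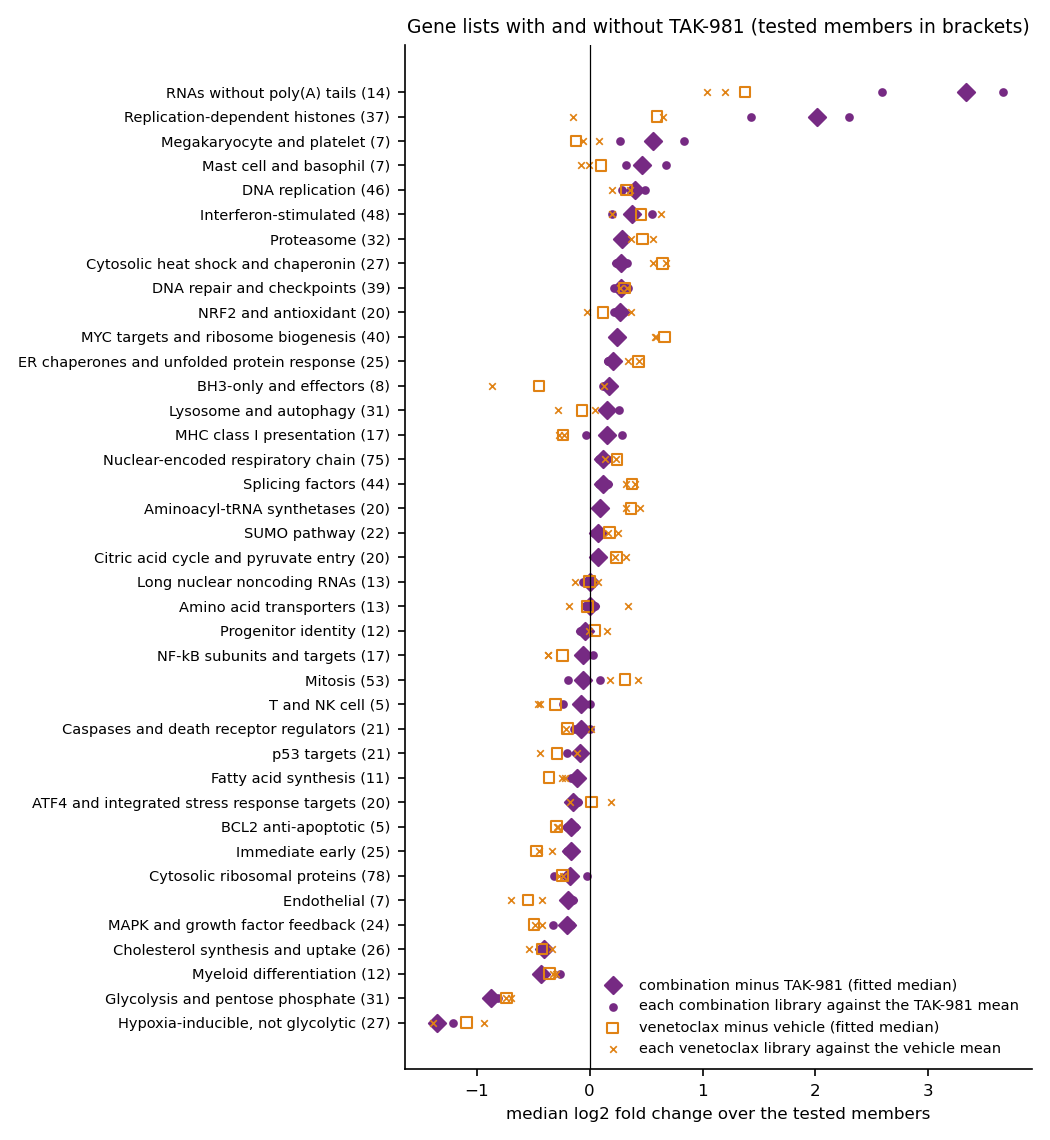
Median log2 fold change over the tested members of the 39 gene lists with at least 5 of them. Filled diamonds are the combination against TAK-981, with a dot for each combination library, and open squares are venetoclax against vehicle, with a cross for each venetoclax library. The hypoxia and glycolysis lists stand lowest with TAK-981 present, at -1.35 and -0.88, and the RNAs without poly(A) tails highest, at 3.34.

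The effect of venetoclax without TAK-981 came from the other 4 libraries, so the comparisons share none. The medians of the 2 effects were -0.88 with TAK-981 and -0.74 without for glycolysis, -1.35 and -1.09 for the hypoxia list, -0.41 and -0.42 for cholesterol, and 0.40 and 0.33 for replication. For mitosis they were -0.06 and 0.31, for MYC targets 0.24 and 0.66, and for heat shock 0.28 and 0.65. For the RNAs without poly(A) tails they were 3.34 and 1.38, and for the replication-dependent histones 2.01 and 0.60. The difference was tested gene by gene, not by list. Of the 775 genes that fell in the combination, 662 (85.4%) were also lower with venetoclax alone by sign, against 64.9% of all tested genes that were lower. Of the 355 that rose, 299 (84.2%) were higher, against 64% of all that were higher. Across 9858 genes of at least 5 CPM, the 2 fold changes had a Pearson r of 0.502 and a Spearman rho of 0.442, a description over genes that share 8 libraries and 1 cell line.

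**Figure D5:**
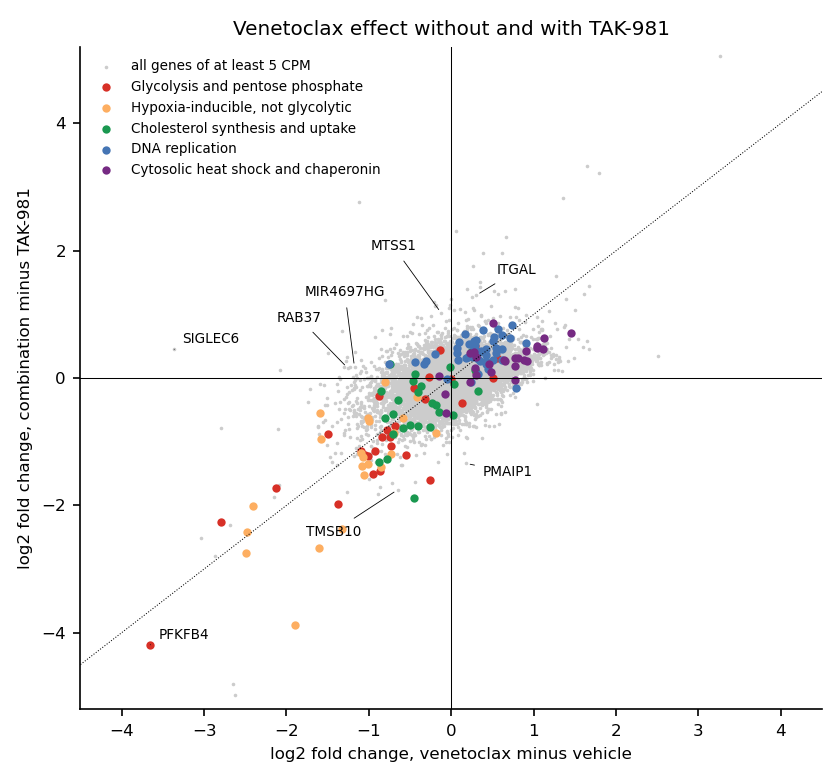
Log2 fold change of venetoclax without TAK-981 (x axis) and with it (y axis) for the 9858 genes of at least 5 CPM, with 5 gene lists coloured and the dotted line where both effects are equal. Glycolysis and hypoxia genes lie in the lower left, with PFKFB4 at -3.65 and -4.19, and RAB37 and SIGLEC6 lie to the left near 0 on the y axis.

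The interaction, the effect of venetoclax in TAK-981-treated cells less its effect without TAK-981, passed for 4 genes, all with a positive difference (0.0311% of 12843 tested), while 2427 had an unadjusted p under 0.05. RAB37, a small GTPase of secretory granules, stood at 51.3 and 57.4 CPM in vehicle and 22.6 and 22.8 in venetoclax alone, but at 169 and 164 with TAK-981 and 175 and 197 in the combination. SIGLEC6, a sialic acid-binding lectin, stood at 7.51 and 8.49 CPM in vehicle and 0.762 and 0.779 in venetoclax alone, and at 4.64 and 7.06 and then 6.54 and 9.54 in the pair with TAK-981. Neither passed in the combination against TAK-981, at 0.16 and 0.45 on the log2 scale. MTSS1, which binds actin and membranes, stood at 49.6 and 45.8 CPM in vehicle and 44 and 43.7 in venetoclax alone, and rose from 73.1 and 67.9 to 142 and 145 when venetoclax was added to TAK-981 (log2 1.02, SE 0.0951). PMAIP1 (difference -1.52, adjusted p = 0.0598), ITGAL (1.00, adjusted p = 0.0598) and BMF (2.02, adjusted p = 0.0845) did not pass the test of the difference.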

How the data were processed

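RNA from KG1a cells was sequenced as single reads in 8 libraries, grouped by the submitters' labels. The deposited values are raw counts of reads per gene for 25168 genes with hg38 coordinates, per the file headers. The submitters' processing notes list Trimmomatic, STAR 2.6.0, HTSeq 0.11.1 and edgeR but not what each did. Not given in the sources used here are the annotation release, whether strand was used, and how reads with several matches were counted. On library method the sources differ: ribosomal RNA depletion stands in the design text, a SMART-Seq kit, of a type that generally primes on poly(A), in the labels' protocols.

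Counts were tested with edgeR 4.0.16 (R 4.3.3, limma 3.58.1): TMM scaling, filterByExpr by group (12843 genes), robust quasi-likelihood F tests, two-sided, from 1 model of all 8 libraries with group means, and Benjamini-Hochberg adjustment with a threshold of 0.05. Standard errors are approximate, taken as the size of the log2 fold change divided by the root of F. CPM values are TMM-scaled, values of single libraries against a group mean used a prior count of 2, and intervals and the floor of 3 counts cover counting error only.

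The comparison, the 42 gene lists (1117 genes, 1106 in the table, 988 tested) and the tests were chosen with earlier results of these data known. Named genes are the 10 largest rises and 10 largest falls among genes of at least 5 CPM over the 4 libraries that were called in the 8-library fit and with each library left out and whose groups did not overlap, leaving out unnamed and noncoding symbols. Added were up to 4 called members per direction, by p, of each list with at least 3 members called in 1 direction at over 1.5 times the background share, a fixed set of apoptosis, SUMO and marker genes, and up to 6 genes per direction called in the interaction. Other genes were chosen after their values were seen, and some genes are not reported here. The alternatives tried were scaling by DESeq2's size factors, omitting the low-count filter, a filter at a mean of 1 CPM, a replicate block, each library left out, the 4 libraries alone, leaving out both venetoclax libraries, a test against a fold change of 1.5, DESeq2 1.42.0 and limma-voom.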

Additional observations from a re-analysis of the deposited data

Results flagged for a closer look

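For 4 genes the effect of venetoclax differed between cells with and without TAK-981 in edgeR's test of the interaction, each with adjusted p = 0.0385. The difference on the log2 scale was 1.42 for RAB37 (SE 0.146), 3.81 for SIGLEC6 (SE 0.42), 1.34 for the host transcript MIR4697HG (SE 0.159) and 1.14 for MTSS1 (SE 0.135). RAB37, SIGLEC6 and MIR4697HG were lower with venetoclax alone, at -1.26, -3.36 and -1.17, and at 0.16, 0.45 and 0.17 when it was added to TAK-981, none of which passed. MIR4697HG stood at 69.9 and 63 CPM in vehicle, 32.1 and 27 with venetoclax, 73.4 and 74.8 with TAK-981 and 83 and 83.5 in the combination. All 4 were called when venetoclax replicate 1 or venetoclax replicate 2 was left out, and none was called when any 1 of the other 6 libraries was. RAB37 overlaps CD300LF and MTSS1 overlaps NDUFB9, so reads may be shared.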

How the results depend on the processing

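Calls in the combination against TAK-981 numbered 1130, and 1875 with no filter on low counts, 98 in the test against a fold change of 1.5, 3746 with the 4 libraries alone and 3678 without both venetoclax libraries. With 1 library left out they ranged from 65 (without combination replicate 2) to 3696 (without venetoclax replicate 1). They were 533 and 529 without vehicle replicates 1 and 2, 150 and 104 without TAK-981 replicates 1 and 2, 3641 without venetoclax replicate 2 and 238 without combination replicate 1. DESeq2's size factors gave 1091, at least 1 CPM 1111, DESeq2 1345 and limma-voom 1147. A fit without 1 library takes the lone sample's spread from the other groups. Interaction calls numbered 4, and 8 with DESeq2's size factors, 1098 with no filter, 306 with DESeq2, 9 with limma-voom and 0 in the test against a fold change of 1.5, and ranged from 0 to 4440 with 1 library left out (713 without venetoclax replicate 1 and 4440 without venetoclax replicate 2).

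The replicate block gave 1253 calls and 24 for the interaction. The replicate numbers do not pair the samples by the labels, and the correlation of same-numbered deviations was 0.165 between TAK-981 and the combination and ran from -0.041 to 0.376 over the pairs of groups. Of the 1130 called genes, 56 were called with every library left out. Of 127 of them that were followed, 33 were: the 20 leading genes, which were chosen for it, ENO1, TPI1, EGLN1, AK4, STARD4, MSMO1, RN7SK, RNU11, RNU12, PMAIP1, MTSS1, SLC2A1 and ANPEP. Each of the other 94 was not called without at least 1 TAK-981 or combination library and kept its direction. Without combination replicate 2, the shallowest at 13204588 counts, 90 were not called. None of these 127 genes changed sign under any alternative. The 2 groups did not overlap in any of the 1130 called genes, beside 8392 of all 12843 tested genes (65.3%) without overlap. A change of sign was therefore hardly possible in the called genes, and its absence is no support. The cause of these shifts was not tested.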

Other observations

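TIPARP and NQO1 are 2 more genes known to respond to AHR, chosen after their values were seen, so they say nothing of AHR targets as a group. TIPARP, a polymerase that modifies AHR, rose from 25 and 25.5 CPM with TAK-981 to 48.1 and 62.5 (log2 1.13, SE 0.144). NQO1, a quinone reductase that NRF2 also drives, rose from 3.95 and 3.69 CPM to 8.73 and 14.7 (log2 1.60, SE 0.363). The receptor gene AHR itself stood at 140 and 152 CPM and then at 96.3 and 108, and its log2 fold change of -0.52 did not pass (adjusted p = 0.0591). ARNT, which encodes the partner of AHR, was at -0.06. TIPARP in the test of the difference between the 2 effects of venetoclax had 1.32 (adjusted p = 0.086).

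Some further genes of low level that rose were likewise chosen after their values were seen. PDGFRA, a growth factor receptor, stood at 2.62 and 2.41 CPM with TAK-981 and at 10 and 13.1 in the combination. SMAD6, an inhibitor of BMP signalling, stood at 2.58 and 1.87 CPM and then at 10.4 and 16.8. SELP, the adhesion receptor P-selectin, stood at 5.2 and 5.94 CPM and then at 15 and 22.8. CDKN2A, which encodes p16 and ARF, stood at 1.25 and 1.66 CPM and then at 5.3 and 12.9, and the chemokine CXCL11 at 1.33 and 1.07 and then at 6.31 and 14.2. For each of these 5 genes the second combination library, which also had more RNA without poly(A) tails, was the higher one, and the part of that library in the rises was not tested. Reads of PDGFRA may be shared with FIP1L1 and other genes that overlap it, those of CXCL11 with ART3 and those of CDKN2A with CDKN2B-AS1. ANPEP, the aminopeptidase CD13, rose from 194 and 199 CPM to 400.2 and 420.3 (log2 1.06, SE 0.1). It stood at 174 to 195 CPM in the 4 libraries without TAK-981. ANPEP was also chosen after its values were seen, so it does not stand for myeloid genes as a group. In the myeloid differentiation list 1 tested gene rose, 2 fell and 9 were not called. The list's median log2 fold change was -0.43, with 10 of its tested genes below 0 and 2 above. Its summed level was 94.1 and 101 CPM with TAK-981 and 72.1 and 85.1 in the combination.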
